A study of Homo sapiens with 48 samples.

Results

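CYC is one of several test chemicals to which differentiating cells of H9, an established human embryonic stem cell line, were exposed. The comparison rests on 4 of the 48 libraries of the study: CYC replicates 1 and 2 against DMSO replicates 1 and 2, chosen by their labels and not by any measured value. DMSO is a common solvent and served as the control. All 4 cultures were wild type, were grown as a monolayer in E6 medium, carried no S9 and were taken after 8 days of differentiation and exposure. For comparison, the 10 libraries of ACE, IMI, TDCIPP, TEP and TPHP from the same day, also without S9, were used, with 2 libraries for each compound. TDCIPP, TEP and TPHP are organophosphate esters, whereas the labels give CYC, ACE and IMI only as abbreviations. Doses are not stated in the labels, so no comparison between compounds is known to be made at a matched dose. Nor do the labels say whether the 2 libraries of a group came from separate differentiations. The p-values therefore measure only the spread between libraries of a group, which may be technical. That spread was estimated over all 46 libraries of day 8, including groups not compared here.

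Human embryonic stem cells that leave pluripotency in a medium without added growth factors commonly take an ectodermal path. Within the ectoderm, cells with low BMP signalling form neural plate, marked at its front by SIX3. Cells with high BMP signalling form surface ectoderm or amnion-like epithelium, marked by GATA3, TFAP2A and simple keratins such as KRT8. HAND1 and ISL1 are transcription factors of amnion and of some mesoderm. WNT, FGF and retinoic acid signals shift cells along these paths. In bulk RNA, fewer cells of a type and less RNA per cell cannot be told apart.

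The 14 libraries held 18587448 to 20014794 counts each, and 17276 to 17389 genes had at least 1 count. Levels are given as TMM-scaled CPM, which divides each count by the size of its library. A gene was called when its adjusted p in edgeR's quasi-likelihood test was under 0.05 after Benjamini-Hochberg adjustment over 16113 genes. Differences between groups are log2 fold changes with their standard error (SE). Between replicates, the median absolute log2 difference of a gene was 0.12 for CYC and 0.18 for DMSO, against 0.26 between the means of CYC and DMSO. The 2 libraries of some other compounds stood further apart in lineage genes than the 2 CYC libraries did. GATA3, for instance, was at 417 CPM in TPHP replicate 1 and 152 CPM in TPHP replicate 2. Replicate 1 was also the higher for TEP, whereas replicate 2 was the higher for ACE, IMI and TDCIPP.

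The 4 lineage markers separated CYC from DMSO. GATA3, a zinc finger regulator of surface ectoderm and trophoblast, was at 494 and 440 CPM in the CYC libraries and at 25.2 and 18.7 CPM in the DMSO libraries. HAND1 was at 132 and 72.1 CPM in CYC and at 0.462 and 0.204 CPM in DMSO. KRT8, a keratin of simple epithelia, was at 3334 and 3195 CPM in CYC and at 898 and 884 CPM in DMSO. In these genes both CYC libraries lay above both DMSO libraries, with no overlap, as they did for 33.3% of all genes tested (the reverse order held for 32.4%). SIX3, a repressor needed for forebrain and eye, was at 50.6 and 49.5 CPM in CYC and at 289 and 486 CPM in DMSO, so the order was the opposite. The log2 fold change over DMSO was 4.41 ± 0.61 (SE) for GATA3, with an edgeR adjusted p of 2.09e-05. For HAND1 it was 8.23 ± 1.40, with an adjusted p of 0.000107. For KRT8 it was 1.87 ± 0.29 (adjusted p 4.95e-05), and SIX3 fell by 2.95 ± 0.58 (adjusted p 0.000439). The other 10 libraries ranged from 152 to 431 CPM for GATA3, from 8.94 to 103 CPM for HAND1, from 2016 to 3480 CPM for KRT8 and from 42.1 to 198 CPM for SIX3. Both CYC libraries thus stood above all 10 for GATA3 only. None of the 4 markers passed the test of CYC against the mean of the other 5 compounds, with adjusted p from 0.142 for HAND1 to 0.377 for KRT8.

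**Figure D1:**
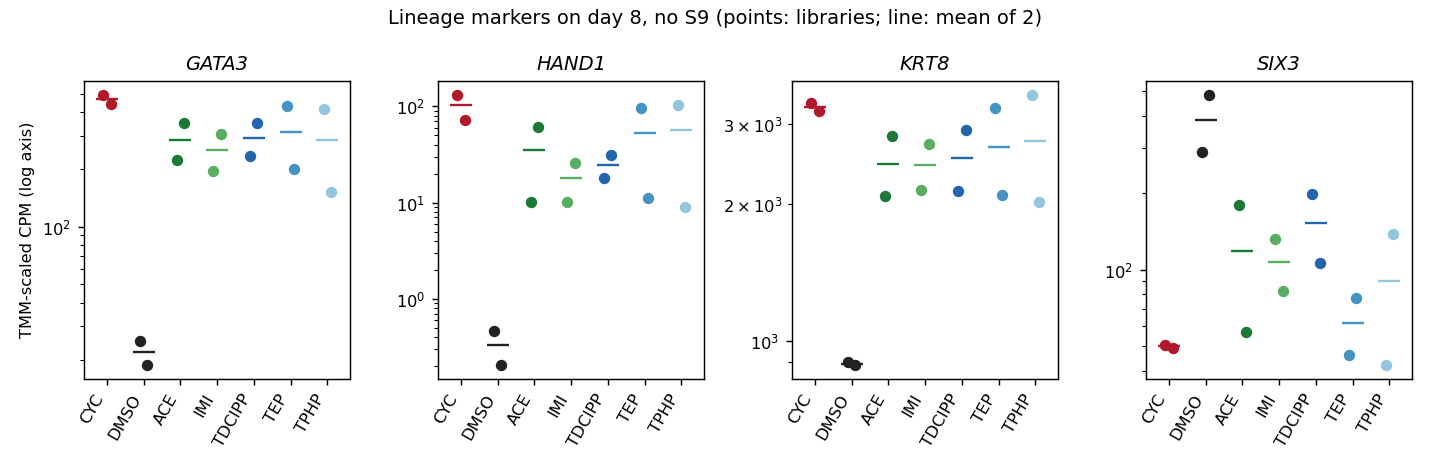
TMM-scaled CPM on a log axis of GATA3, HAND1, KRT8 and SIX3 in the 14 libraries without S9, with points for libraries and a line for the mean of 2. GATA3, HAND1 and KRT8 are higher and SIX3 is lower in both CYC libraries than in both DMSO libraries; for GATA3 the CYC libraries, at 494 and 440 CPM, also lie above the highest library of the other compounds at 431 CPM.

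The promoters of GATA2 and RARB are shown because both genes rose: GATA2 is a surface ectoderm regulator and RARB a retinoic acid target. Genes and elements were chosen after their values were seen. Each is the 250 bases before a start site that RefSeq lists (table build GRCh38.p14), written 5′ to 3′ on the strand of the gene. The GATA2 stretch is chr3:128488531-128488780 on the minus strand, and the capitals mark 2 adjacent copies of GGCGCC, a GC-rich element that SMAD proteins of the BMP and TGF-beta pathways can bind. The RARB stretch is chr3:25428013-25428262 on the plus strand. There the capitals mark a DR5 element, the direct repeat through which retinoic acid receptors act on this gene, which begins 53 bases before the start.
GATA2: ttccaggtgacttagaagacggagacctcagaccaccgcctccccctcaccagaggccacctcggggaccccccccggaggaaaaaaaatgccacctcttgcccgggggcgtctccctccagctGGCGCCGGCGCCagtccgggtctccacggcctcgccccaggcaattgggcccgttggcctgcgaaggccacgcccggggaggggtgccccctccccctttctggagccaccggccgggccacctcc
RARB: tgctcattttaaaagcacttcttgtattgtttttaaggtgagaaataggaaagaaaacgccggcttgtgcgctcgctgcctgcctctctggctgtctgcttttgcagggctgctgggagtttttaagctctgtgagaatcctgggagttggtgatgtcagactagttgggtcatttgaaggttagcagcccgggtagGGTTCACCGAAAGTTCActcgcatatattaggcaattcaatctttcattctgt
GGCGCC reads the same on both strands, and the DR5 element was searched on both strands. Among genes tested with a RefSeq window, GGCGCC was present for 28% of 510 genes that rose at least 2-fold, 28% of 575 genes that fell at least 2-fold and 30.0% of all 12643. The DR5 element was present for 1 of the 510, 0 of the 575 and 10 of the 12643 genes. A match is a description of letters and not a measured binding site.

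Against DMSO, 4762 of 16113 genes were called, which is 29.6%: 2316 were higher in CYC (14.4%) and 2446 were lower (15.2%). At a change of at least 2-fold, 718 genes were higher (4.46%) and 788 lower (4.89%). The median log2 fold change over all genes tested was 0.00. The number called moved with the libraries used and was 2763 without CYC replicate 1, 3076 without CYC replicate 2, 2394 without DMSO replicate 1 and 4196 without DMSO replicate 2. In each of these fits the lone library was taken to vary like the other groups.

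**Figure D2:**
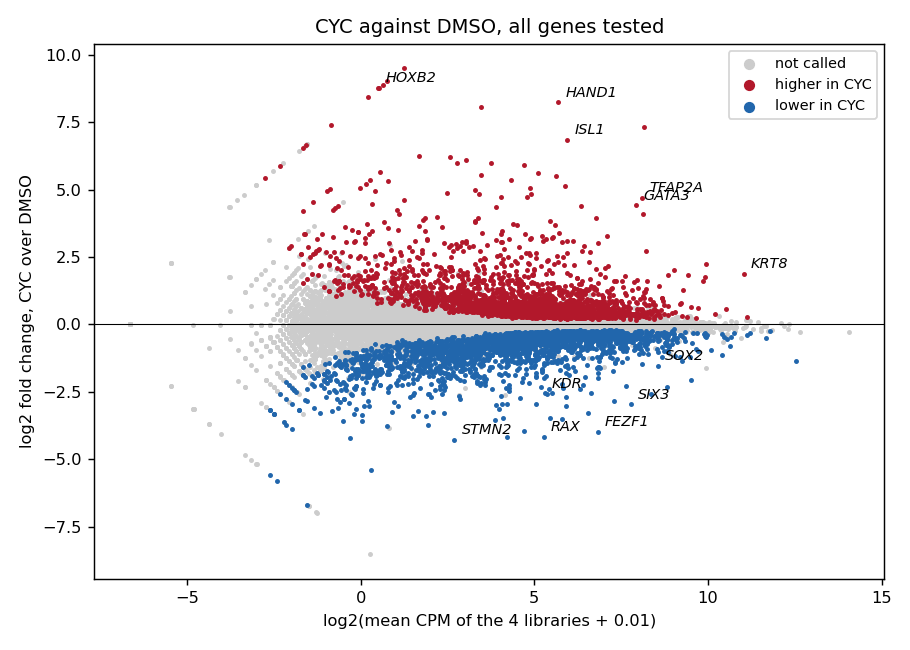
Log2 fold change of CYC over DMSO against log2(mean CPM of the 4 libraries + 0.01) for all 16113 genes tested, with called genes coloured. The 2316 genes higher and 2446 genes lower in CYC lie at low and at high levels, and HAND1 at 8.23 and STMN2 at -4.27 are among the labelled genes.

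Genes were ranked by p among those called, changed at least 2-fold and without overlap between the CYC and DMSO libraries. Those that rose included SPHK1, INF2, ROBO2, TRIML2, OBSL1 and KRT19. SPHK1, a kinase that makes sphingosine 1-phosphate, was at 24.9 and 30.7 CPM in CYC and at 4.73 and 4.49 CPM in DMSO, a log2 fold change of 2.59 ± 0.28 (edgeR adjusted p 2.52e-06). INF2, a formin that shapes actin filaments, was at 250 and 291 CPM against 116 and 140 CPM (1.08 ± 0.12). ROBO2, a receptor for SLIT guidance cues, was at 60.02 and 46 CPM against 4.57 and 7.09 CPM (3.18 ± 0.37). The separation of CYC from DMSO in these genes was set by the choice of genes and is not a result. ADAMTSL4, a secreted matrix protein, was at 119 and 99.9 CPM against 12.9 and 12.6 CPM, and KRT19, a simple keratin, at 761 and 672 CPM against 199 and 200 CPM. SAMD11, ATP8B1, JCAD, SLC16A5 and SGSM2 completed the 12 genes chosen by p in this direction, with log2 fold changes from 1.06 to 2.25.

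Among the genes that fell were FKBP5, ETV1, LRRC20, KDR, PTPRZ1 and PTN. FKBP5, a co-chaperone of steroid receptors, was at 26.5 and 27.7 CPM in CYC and at 60.9 and 57.6 CPM in DMSO, so that it fell by 1.13 ± 0.13 on the log2 scale (adjusted p 4.44e-06). ETV1, a transcription factor induced by FGF, was at 13.7 and 18 CPM against 46.4 and 47.8 CPM. KDR, the main receptor for VEGF, was at 11.7 and 11.1 CPM against 64.8 and 69.1 CPM. These genes too were chosen for no overlap between the CYC and DMSO libraries, so their separation is not a result. PTPRZ1 is a receptor phosphatase of neural progenitors and PTN is its secreted ligand: they fell by 1.60 ± 0.20 and 1.28 ± 0.16. P4HA1, MMD, SLC38A4, MEIOC, PYGL and KIF5C fell by 1.13 to 2.39.

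The genes with the largest fitted rises had no count in DMSO, so that only a lower bound of their fold is known and their order against genes such as HAND1 is not. CYSLTR2, a leukotriene receptor, was at 4.71 and 4.69 CPM in CYC and had no count in either DMSO library, and was at least 30.7-fold higher against a floor of 3 counts per library. TBR1, a T-box factor of cortical neurons, was at 3.01 and 3.16 CPM in CYC, also with no count in DMSO, and was at least 20.1-fold higher. TEX49 and the read-through gene TNFAIP8L2-SCNM1 were at least 18.3-fold and 21.9-fold higher on the same floor. These last genes lost the call when either DMSO replicate was left out, and TEX49 also without CYC replicate 1. Reads of a read-through gene cannot be told from those of its parent genes. At the other end, RAX was at 5.37 and 2.75 CPM in CYC and at 50.3 and 95.4 CPM in DMSO, and STMN2 was at 0.852 and 0.408 CPM against 12.5 and 12.1 CPM. LHX2, NEUROG2 and TLR4 had called falls of 4.16, 5.38 and 4.20, but none of these 3 passed when either CYC replicate or the second DMSO replicate was left out.

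Regulators of surface ectoderm rose: 13 of 18 tested were called higher and 0 lower. The background was 14.4% of all genes higher and 15.2% lower, and it applies to every list below. The lists were written with earlier results of these data known, so an excess over this background is not independent support. The median log2 fold change of the list was 1.42 against 0.00 over all genes. TFAP2A, an AP-2 factor of non-neural ectoderm, was at 559 and 496 CPM in CYC and at 23.7 and 16.9 CPM in DMSO (4.70 ± 0.74, adjusted p 5.24e-05). GATA2, whose promoter is printed above, was at 39.1 and 34.2 CPM against 7.14 and 7.34 CPM (2.34 ± 0.32). TFAP2C was at 136 and 135 CPM against 60.4 and 49.2 CPM, and GRHL2, a regulator of epithelial junctions, at 109 and 103 CPM against 41.9 and 42.8 CPM. In each gene the CYC libraries lay above the DMSO libraries. Genes named from this and the later lists were mostly chosen by p, so their separation from DMSO is not a result. The summed level of the 18 genes was 1988 and 1740 CPM in CYC, 381 and 411 CPM in DMSO and 761 to 1706 CPM in the other compounds. TFAP2B and GRHL2 were the members called higher in CYC than in the other compounds. Epithelial structure followed the same direction, with 12 of 16 simple epithelial genes higher, 0 lower and a median of 1.17. KRT7, a simple keratin, rose from 8.07 and 9.84 CPM in DMSO to 93.6 and 74.7 CPM in CYC. The desmosome protein DSP rose from 188 and 229 CPM to 584 and 537 CPM. CDH1, the E-cadherin of epithelial junctions, rose less, from 362 and 350 CPM to 567 and 572 CPM (0.68 ± 0.13). The desmosome protein PKP2 rose from 57.5 and 51.8 CPM to 160 and 130 CPM. Among 14 genes of the epithelial to mesenchymal switch 6 were higher and 4 lower, with a median of -0.07. OVOL2 and ESRP2, which maintain epithelia, rose by 1.19 ± 0.19 and 0.56 ± 0.12. The count of lower genes was 2 without CYC replicate 1, 1 without CYC replicate 2 and 2 without DMSO replicate 2.

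Genes of amnion and extra-embryonic tissue were higher in 8 of 10 tested, with 0 lower and a median of 3.47. ISL1 was at 137 and 106 CPM in CYC and at 1.64 and 0.459 CPM in DMSO (6.85 ± 1.14, adjusted p 8.58e-05). TBX3, a T-box repressor, was at 66.5 and 46.5 CPM against 1.44 and 1.94 CPM, and VTCN1, a surface protein of amnion, at 20.9 and 11.2 CPM against 0.308 and 0.153 CPM. The CYC libraries exceeded the DMSO libraries several-fold in these genes, which were chosen by p, so that order is not a result. GABRP, a GABA receptor subunit, was at 66.7 and 45.3 CPM against 13.6 and 6.68 CPM (2.46 ± 0.65), a call that was lost without DMSO replicate 2. IGFBP3, which binds insulin-like growth factors, lost its call without CYC replicate 1 or DMSO replicate 1.

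Of the trophoblast markers 2 of 14 tested were called higher, 1 was called lower and the median was -0.14. Neither share lay above the background of 14.4% higher and 15.2% lower. Their summed level was 191 and 179 CPM in CYC, 224 and 228 CPM in DMSO and 172 to 202 CPM in the other compounds. The called genes were TEAD4, CGB7 and SDC1. CGB7 has near-identical copies and its count is uncertain, and neither TEAD4 nor CGB7 was called without DMSO replicate 1. SDC1, a surface proteoglycan, fell from 51.3 and 52.9 CPM to 13 and 14.1 CPM. CGA, the shared subunit of placental and pituitary hormones, was at 0.652 and 1.02 CPM in CYC and at 0.205 and 0.051 CPM in DMSO, which did not pass the test (adjusted p 0.0742). Of 11 mesendoderm genes tested 2 were higher (GATA6 and MIXL1) and 1 was lower (GSC, lost without any one of the 4 libraries), with a median of 0.36. The share of higher genes lay near the 14.4% of all genes, and that of lower genes below 15.2%. Among 9 genes of mesoderm derivatives 4 were higher and 2 lower, with a median of 0.41; 2 were higher without CYC replicate 2 or without DMSO replicate 1, and 1 was lower without any 1 of the 4 libraries. NKX2-5, a heart and pharyngeal homeobox gene, rose from 0.411 and 0.408 CPM to 29.6 and 23.6 CPM.

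BMP signalling genes rose in 12 of 21 tested and fell in 1, with a median of 0.70; the single fall was lost without the first replicate of CYC or of DMSO. The ligand BMP4 was at 169 and 185 CPM in CYC and at 41.5 and 44.7 CPM in DMSO (2.04 ± 0.33, adjusted p 5.95e-05), and the ligand GDF6 was at 22.8 and 16.5 CPM against 1.18 and 1.33 CPM. The direct target ID1, an inhibitor of basic helix-loop-helix factors, was at 911 and 853 CPM against 395 and 332 CPM, and ID2 at 368 and 335 CPM against 140 and 94.7 CPM. These ligands and targets were chosen by p, so their higher level in both CYC libraries is not a result. The ligand BMP7 was the member that fell (log2 fold change -0.44, edgeR adjusted p 0.0201). Among feedback inhibitors BAMBI, a decoy receptor, rose from 15.9 and 10.9 CPM to 213 and 202 CPM (3.95 ± 0.60), and SMAD6 rose from 26.6 and 24.9 CPM to 93.0 and 102 CPM.

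Of the WNT genes, 4 of 26 tested were higher and 7 lower, with a median of 0.10; 2 were higher without the second replicate of CYC or of DMSO. With all libraries kept, the share of higher WNT genes lay near the 14.4% of all genes tested. The ligand WNT6 was at 67.4 and 67.3 CPM in CYC and at 1.80 and 0.969 CPM in DMSO (5.60 ± 0.86, adjusted p 4.55e-05). Of the secreted antagonists, SFRP1 fell from 503 and 629 CPM to 93.2 and 95.2 CPM, FRZB from 161 and 174 CPM to 27.3 and 30.4 CPM, and SFRP2 from 329 and 473 CPM to 130 and 160 CPM, whereas SFRP5 did not pass the test (log2 fold change -0.20, adjusted p 0.754). The receptor FZD5, which marks the eye field, fell by 2.33 ± 0.44. FGF and ERK genes were lower in 12 of 23 tested and higher in 1, with a median of -1.14; the count of lower genes was 7 without CYC replicate 1 or without DMSO replicate 2. DUSP4, a feedback phosphatase of ERK, was at 19.5 and 35.6 CPM against 86.6 and 114 CPM (fell by 1.87 ± 0.36), and the ligand FGF19 was at 2.26 and 1.58 CPM against 9.25 and 7.65 CPM. The receptor FGFR3 was the one that rose (0.70 ± 0.15).

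Retinoic acid genes split, with 5 of 18 tested higher, 5 lower and a median of 0.02; 3 were lower without CYC replicate 1 or CYC replicate 2 and 2 without DMSO replicate 1. RARB, a retinoic acid receptor and a target of its own ligand, was at 73.6 and 61.9 CPM in CYC and at 9.61 and 4.49 CPM in DMSO (3.27 ± 0.58, adjusted p 0.000176); its DR5 element is printed above. CYP26C1, which breaks retinoic acid down, was at 64.8 and 34.4 CPM against 6.37 and 9.38 CPM. STRA6, a carrier of vitamin A into cells, was at 27.9 and 22.3 CPM against 10.4 and 12.2 CPM, and MEIS1, a HOX cofactor, at 60.9 and 41.7 CPM against 0.719 and 0.969 CPM. These 4 genes were chosen by p, so the lack of overlap between CYC and DMSO in them is not a result. CRABP1, a binding protein for retinoic acid, was lower, at 48.9 and 60.3 CPM against 167 and 167 CPM. The HOXB genes were near the limit of detection. Of 25 listed HOX genes 4 passed the low-count filter, and as a gene that passes through the group where it is high has to differ, the share called among them is not a result. HOXB2 had 70 and 43 counts in the CYC libraries and 0 counts in either DMSO library, at least 18.6-fold higher than a floor of 3 counts per library. HOXB1 had 25 and 16 counts against 0 and 1, and HOXB3 had 24 and 19 against 2 and 0. HOXB1, HOXB2 and HOXB3 were called by edgeR, whereas DESeq2 called HOXB2 but not HOXB1 or HOXB3. HOXB1 was not called by edgeR without DMSO replicate 1, nor HOXB3 without DMSO replicate 2. As strand is not stated for the counting, antisense transcripts of the HOX clusters cannot be told from the genes.

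Regulators of anterior neural tissue fell: 10 of 14 tested were lower and 1 was higher, with a median of -2.95. The count of lower genes was 5 without CYC replicate 1 or without CYC replicate 2, and 6 without DMSO replicate 2. HESX1, a forebrain homeobox repressor, was at 9.08 and 9.08 CPM in CYC and at 93.0 and 111 CPM in DMSO (fell by 3.49 ± 0.62, adjusted p 0.000167). FEZF1, a forebrain zinc finger factor, was at 16.7 and 10.4 CPM against 166 and 258 CPM. Both genes were chosen by p, so their lower level in both CYC libraries is not a result. OTX1 was the exception in the list and rose from 9.20 and 8.82 CPM to 107 and 57.3 CPM. Of 22 neural plate genes 11 were lower and 1 higher, with a median of -1.27. SOX2, a factor of neural and pluripotent cells, was at 173 and 210 CPM against 579 and 533 CPM (fell by 1.54 ± 0.21, adjusted p 1.8e-05). POU3F1 fell from 66.9 and 93.8 CPM to 7.22 and 7.34 CPM, and ZIC2 from 280 and 373 CPM to 61.3 and 74.7 CPM. IRX3 rose instead, from 15.2 and 13.7 CPM to 133 and 116 CPM.

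Genes of young neurons were lower in 8 of 21 tested and higher in 3, with a median of -0.49, and 2 were lower without CYC replicate 1, 4 without CYC replicate 2 and 5 without either DMSO replicate; 1 was higher without CYC replicate 1. With all libraries kept, the share of higher genes in this list lay near the 14.4% of all genes tested. STMN2, a tubulin-binding protein of growing axons, is given above. DLL3, a Notch ligand, fell from 9.45 and 11.6 CPM to 3.36 and 4.03 CPM, whereas DLL1 rose from 39.5 and 41.6 CPM to 78.2 and 111 CPM. Of 17 Notch genes, among them these ligands, 4 were higher and 5 lower, with a median of 0.01; either count was 2 without CYC replicate 2. The count of lower Notch genes was also 2 without CYC replicate 1 or DMSO replicate 2, and that of higher genes 2 without DMSO replicate 1. Ion channel and transmitter receptor genes were lower in 11 of 21 tested and higher in 1, with a median of -0.79, and 4 were lower without CYC replicate 1 and 6 without DMSO replicate 2. GRIN2B, an NMDA receptor subunit, fell from 1.34 and 1.07 CPM to 0.251 and 0.204 CPM. Subunits and chaperones of nicotinic acetylcholine receptors were lower in 5 of 14 tested and higher in 0, with a median of -0.37. CHRNA5 fell from 16.5 and 17.5 CPM to 8.62 and 10.05 CPM (0.87 ± 0.17 lower in log2). The list count was 2 without CYC replicate 1 and 3 without CYC replicate 2. Pluripotency genes were lower in 12 of 19 and higher in 0, with a median of -0.79, but 5 were lower and 1 higher without DMSO replicate 1. NANOG was at 13.9 and 15.8 CPM against 54.4 and 34.6 CPM, and USP44, a deubiquitinase of stem cells, at 23.7 and 27.2 CPM against 153 and 116 CPM.

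Placode genes, which mark the precursors of sense organs and cranial ganglia, were higher in 8 of 16 and lower in 1, with a median of 1.38; 5 were higher without CYC replicate 1. EYA2, a phosphatase and transcriptional cofactor, was at 51.8 and 41.0 CPM against 8.84 and 5.96 CPM, and EYA1 at 18.3 and 12.9 CPM against 4.21 and 4.74 CPM. SOX8 fell by 1.29 ± 0.21. Of 14 neural crest genes 4 were higher and 4 lower, with a median of -0.32; each count was 2 without DMSO replicate 2, and 1 was lower without CYC replicate 1. PRDM1 rose (2.19 ± 0.38) and FOXD3 fell from 11.2 and 13.2 CPM to 3.91 and 3.93 CPM. Sphingosine phosphate genes beside SPHK1 included the exporter SPNS2, at 104 and 92.8 CPM against 11.6 and 12.2 CPM, and the receptor S1PR3, at 6.02 and 6.68 CPM against 35.6 and 48.6 CPM. In this list 5 of 13 were higher and 2 lower, with a median of 0.02; 1 was lower without CYC replicate 1 or either DMSO replicate.

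Basement membrane and matrix genes were higher in 8 of 22 tested and lower in 4, with a median of 0.08. The laminin chain LAMB1 was at 397 and 352 CPM in CYC and at 170 and 194 CPM in DMSO (1.04 ± 0.18, adjusted p 0.000158), and LAMA5 at 499 and 584 CPM against 265 and 325 CPM. COL3A1, a fibrillar collagen, was lower, at 0.201 and 0.255 CPM against 1.54 and 4.79 CPM. In this list 3 genes were higher without DMSO replicate 1, and 0 were lower without CYC replicate 1 or DMSO replicate 2, so the COL3A1 call rests on those libraries. Of 12 Hedgehog genes 3 were higher and 1 lower, with a median of -0.03. GAS1, a co-receptor for Hedgehog ligands, rose from 14.7 and 18.9 CPM to 93.7 and 116 CPM (2.65 ± 0.47), as did its partner BOC, whereas CDON, the lower gene, was not called without any 1 of the 4 libraries. Of 18 actin and YAP genes 3 were higher and 5 lower, with a median of 0.02; 2 were lower without any 1 library and 1 was higher without CYC replicate 2. With all libraries kept, the share of higher actin and YAP genes lay near the 14.4% of all genes tested. VCL, which links actin to adhesions, fell from 527 and 666 CPM to 289 and 318 CPM.

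Lists of growth, metabolism and stress come next. Of 26 cell cycle genes 10 were lower and 2 higher with a median of -0.16, and of 25 sterol synthesis genes 10 were lower and 0 higher with a median of -0.25. Without DMSO replicate 1 these counts of lower genes were 3 and 1, and without CYC replicate 1 they were 5 and 2. DMSO replicate 1 was the higher DMSO library for CCNB1, a mitotic cyclin, at 283 CPM against 194 CPM in replicate 2 and 143 and 149 CPM in CYC. Of 21 hypoxia and glycolysis genes 6 were lower and 1 higher with a median of -0.27, and 3 were lower without DMSO replicate 1. NDRG1, a hypoxia-induced gene, rose from 8.07 and 8.92 CPM to 29.4 and 31.2 CPM, and ENO2, a neuronal enolase, fell from 473 and 494 CPM to 241 and 276 CPM. Of 16 p53 targets 6 were lower and 2 higher with a median of -0.41, with 3 lower without CYC replicate 1 and 2 without DMSO replicate 1. Of 19 NRF2 targets 5 were lower and 1 higher with a median of -0.24; 3 were lower without CYC replicate 1 and 2 without CYC replicate 2 or DMSO replicate 1. Of 11 fatty acid genes 2 were higher and 1 lower, with a median of 0.10. Of 17 genes of the ATF4 stress response 1 was higher and 1 lower, and of 20 ribosome biogenesis genes 0 were higher and 2 lower, all of them shares below the background. Of 15 xenobiotic metabolism genes 1 was higher and 2 lower, which is not above the background of 14.4% and 15.2%. CYP1B1, a cytochrome of that list, was at 9.18 and 16.7 CPM against 4.52 and 3.57 CPM, a call lost without CYC replicate 2. The counts of 2 or fewer for cell cycle, p53, fatty acid, ATF4, ribosome biogenesis and xenobiotic genes fell when a CYC replicate was left out, except the 1 lower fatty acid gene.

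**Figure D3:**
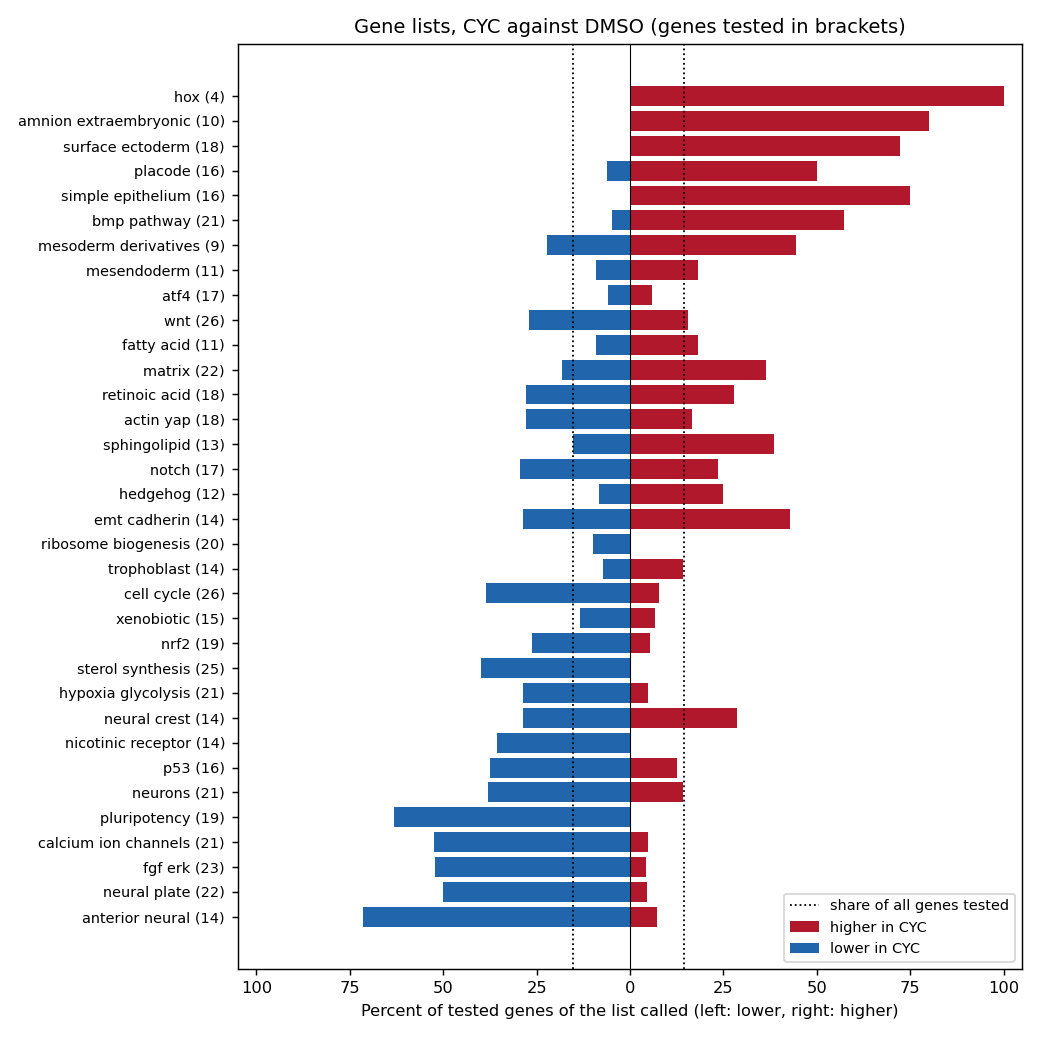
Percent of the tested genes of each of 34 lists that were called lower (left, blue) or higher (right, red) in CYC than in DMSO, ordered by the median log2 fold change, with dotted lines at the shares of all genes tested, 15.2% lower and 14.4% higher. Amnion, surface ectoderm and simple epithelium reach far right with no gene called lower, and anterior neural genes reach furthest left, with 10 of 14 lower. The lists were written with earlier results of these data known.

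What set CYC apart from ACE, IMI, TDCIPP, TEP and TPHP was examined next. Each of these was compared with the same DMSO libraries, so the counts share their control and are set side by side without a test. Against DMSO, 4762 genes were called for CYC, 1378 for ACE, 1001 for IMI, 1460 for TDCIPP, 2041 for TEP and 1826 for TPHP. The median absolute log2 fold change was 0.29 for CYC, 0.20 for IMI, 0.21 for ACE and TDCIPP and 0.22 for TEP and TPHP. GATA3 had log2 fold changes over DMSO of 3.71 for ACE, 3.52 for IMI, 3.74 for TDCIPP, 3.85 for TEP and 3.70 for TPHP, beside 4.41 for CYC. SIX3 had -1.71, -1.85, -1.35, -2.65 and -2.10 in the same order, beside -2.95 for CYC. The direction for these markers was thus shared by all 6 compounds.

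**Figure D4:**
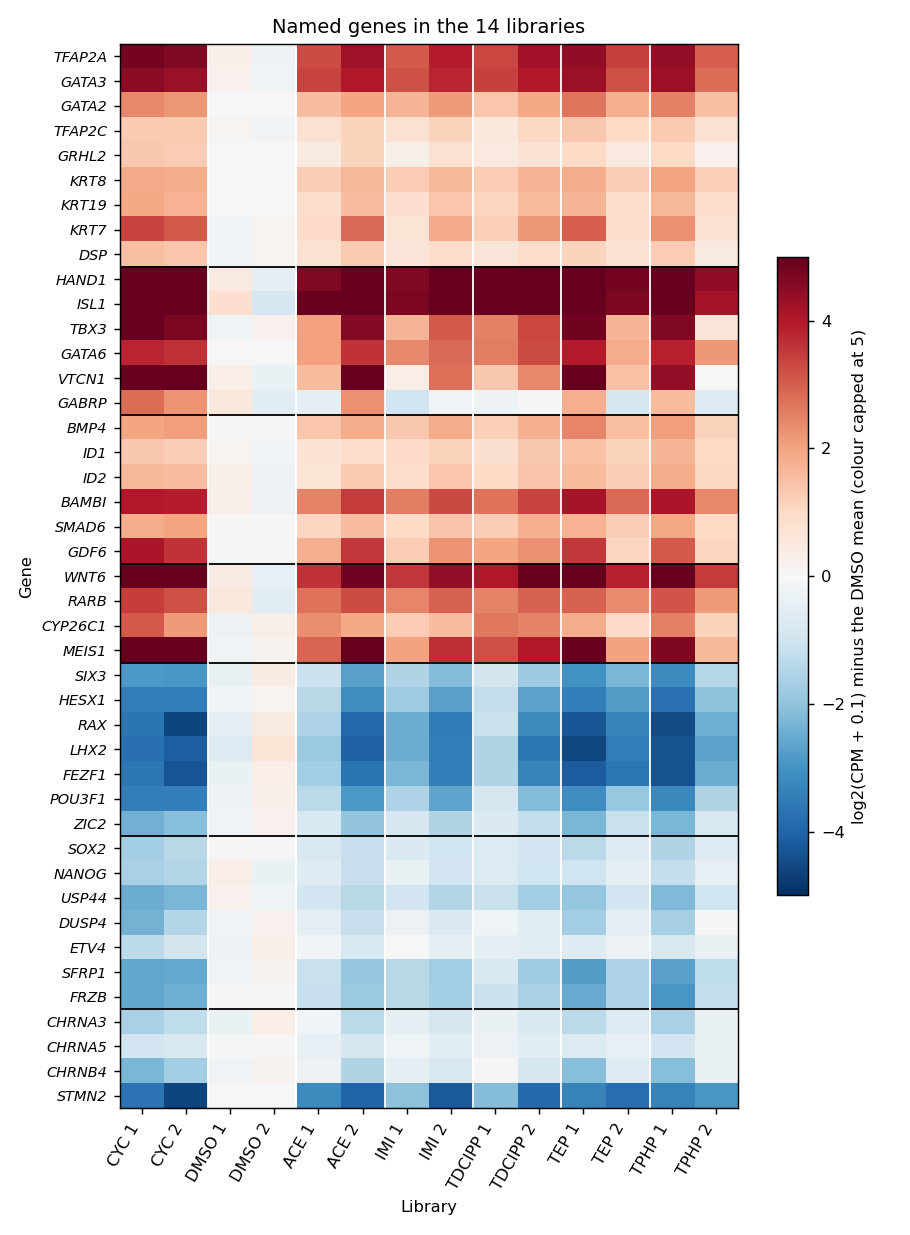
Log2(CPM + 0.1) of 43 named genes in the 14 libraries, each minus the mean of the 2 DMSO libraries, with the colour capped at 5. Both CYC libraries show strong colours from the surface ectoderm genes at the top to the neural genes at the bottom, and 1 library of each other compound, such as TPHP replicate 1, shows stronger colours than its partner.

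In the test of CYC against the mean of the other 5 compounds, 319 genes were called (1.98%), 188 higher (1.17%) and 131 lower (0.813%) in CYC, and 3069 had an unadjusted p under 0.05. This count depends on single libraries: it was 0 without CYC replicate 1, 5 without CYC replicate 2 and 6 when IMI was left out of the mean. It was also 0 when the spread was estimated from the 12 libraries compared alone, and 717 with DESeq2, of which 301 were higher and 416 lower. The genes below are therefore described mainly by their levels. Both CYC libraries lay above all 10 others for 831 genes (5.16%) and below all 10 for 982 genes (6.09%). For 171 of the 188 genes called higher (91.0%), the DMSO mean lay below the mean of the other 10 libraries, against 50.7% of all genes. For 111 of the 131 genes called lower (84.7%), the DMSO mean lay above it, against 49.3% of all genes. In most of these genes the other compounds thus lay between DMSO and CYC, which was not tested.

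Of 10 amnion genes tested, 3 were called higher in CYC than in the other compounds and 0 lower, against 1.17% of all genes higher. Both CYC libraries lay above all 10 others for only 1 of them. HAND1 was not called, as given above, and the dependence on single libraries holds here too. HOX genes were called higher too, but the limit given above holds. Few of them passed the low-count filter, and the share called among those is not a result. HOXB2, with 70 and 43 counts in CYC, had 0 to 37 counts in the other 10 libraries, and HOXB3, with 24 and 19, had 0 to 13. HOXB1, HOXB2 and HOXB3 were called higher by edgeR and not by DESeq2. VTCN1 ranged from 0.213 to 13.3 CPM in the other libraries, with a median of 1.22 CPM, and overlapped the CYC libraries at 20.9 and 11.2 CPM (2.50 ± 0.63, adjusted p 0.0408; not called by DESeq2). GABRP ranged from 4.70 to 47.4 CPM with a median of 8.18 CPM (2.00 ± 0.42, adjusted p 0.0234), and its highest library, ACE replicate 2, reached the lower CYC library at 45.3 CPM. KRT7 stayed between 14.2 and 70.5 CPM in the others, below both CYC libraries (1.36 ± 0.36, adjusted p 0.047).

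BOC, a co-receptor for Hedgehog ligands, was at 123 and 80.6 CPM in CYC, at 27.0 and 30.4 CPM in DMSO and at 35.0 to 76.8 CPM in the other compounds (1.05 ± 0.18, adjusted p 0.0167). ADAMTSL4 ranged from 28.6 to 87.2 CPM in the others, below both CYC libraries (1.11 ± 0.24, adjusted p 0.0259). CCBE1, a secreted factor of lymphatic growth, was at 40.3 and 28.7 CPM in CYC and at 8.73 to 28.1 CPM in the others. NOS2, the inducible nitric oxide synthase, was at 8.42 and 8.16 CPM and at 2.54 to 6.94 CPM. These 4 genes were chosen among those with both CYC libraries above all 10 others, so that order is not a result. KIF26B, LRRN4, CAMK1G and TAGLN3 completed the first 10 in this direction. TAGLN3 differed from the rest in its DMSO level: it was at 2.61 and 1.73 CPM in CYC, at 1.59 and 1.02 CPM in DMSO and at 0.202 to 1.68 CPM in the others, and it did not pass the test against DMSO (adjusted p 0.158). STRA6 and TGM2, a transglutaminase induced by retinoic acid, were higher than in the other compounds as well, by 0.60 ± 0.11 and 0.88 ± 0.15. TGM2 was at 6.17 and 4.74 CPM in CYC, at 3.85 and 3.87 CPM in DMSO and at 2.28 to 3.93 CPM in the others.

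Among genes lower in CYC, TNFSF9, a ligand of the TNF family, was at 3.56 and 3.62 CPM in CYC, at 12 and 10.9 CPM in DMSO and at 4.80 to 13.03 CPM in the other compounds (fell by 1.14 ± 0.20, adjusted p 0.0167). PRKCB, a protein kinase C, was at 5.92 and 7.85 CPM against 10.3 to 19.7 CPM, and NPTX2, a neuronal pentraxin, at 8.52 and 12.8 CPM against 15.9 to 30.7 CPM. These genes were chosen among those with both CYC libraries below all 10 others, so that order is not a result. DCLK1, a kinase that binds microtubules, was at 35.1 and 49.3 CPM in CYC, at 67.2 and 55.9 CPM in DMSO and at 57.2 to 97.1 CPM in the others (fell by 0.83 ± 0.15, adjusted p 0.0167). SOX2 was at 194 to 359 CPM in the others and fell by 0.62 ± 0.17 against their mean (adjusted p 0.047), with its lowest library inside the CYC range. TRIM22, IL34, MFSD2A, USP44, SLC6A3 and HECW1 completed the first 10 and fell by 1.005 to 1.36.

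**Figure D5:**
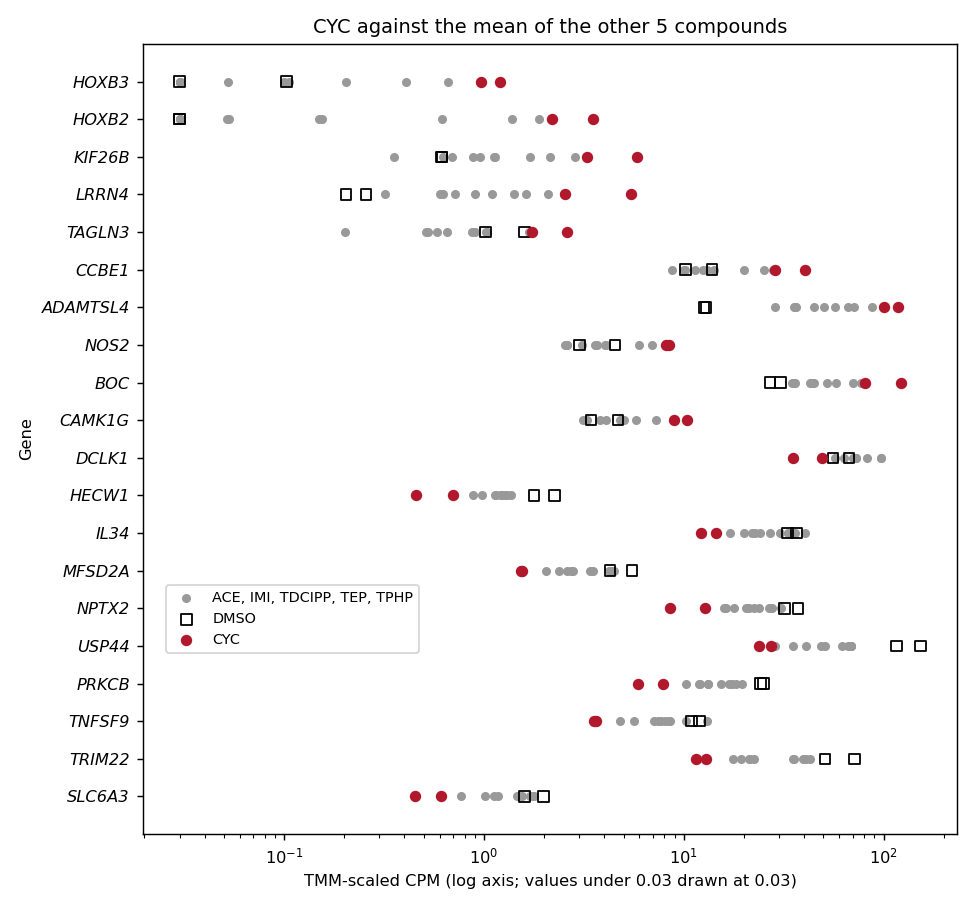
TMM-scaled CPM on a log axis of the 20 genes named for CYC against the mean of the other 5 compounds, with red points for the 2 CYC libraries, open squares for DMSO and grey points for the other 10 libraries (values under 0.03 drawn at 0.03). The genes, from HOXB3 at the top to SLC6A3 at the bottom, were chosen so that both red points lie beyond all grey points.

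Compared with single compounds, 10 genes differed between CYC and IMI and 8 between CYC and TPHP, which is 0.0621% and 0.0496% of genes tested. Against IMI 4 were higher in CYC (0.0248%) and 6 lower (0.0372%), and against TPHP 2 were higher (0.0124%) and 6 lower (0.0372%). Adjusted over all 5 pairs together, 0 remained for IMI and 2 for TPHP. The 2 with the smallest p against TPHP were TNFSF9, which was lower in CYC by a log2 difference of -1.58 ± 0.24, and PRRG3, a vitamin K-dependent membrane protein, at -0.90 ± 0.14 (edgeR adjusted p 0.00738 for both). Both calls are part of a count that was 0 without CYC replicate 1, CYC replicate 2 or TPHP replicate 2, and 798 without TPHP replicate 1. Against IMI, BOC was higher by 1.37 ± 0.25 and TAGLN3 by 2.58 ± 0.46, and DCLK1 was at -0.999 ± 0.18 (adjusted p 0.0401 for each). NEIL2, a DNA repair glycosylase, was at -0.74 ± 0.14. That count was 0 without CYC replicate 1 or IMI replicate 1. In the fit of all day 8 libraries edgeR called 0 genes between CYC and ACE, TDCIPP or TEP, where 1388, 2546 and 1536 genes had an unadjusted p under 0.05. With the compared groups alone edgeR called 642 genes for TDCIPP, with a replicate block 1, and for TEP it called 26 without TEP replicate 1. DESeq2 called 165 genes for TDCIPP, 6 for TEP and 0 for ACE. A missed threshold in these pairs does not show that the compounds act alike. For BOC the difference was 0.74 ± 0.25 from ACE, 1.01 ± 0.25 from TDCIPP and 1.20 ± 0.25 from TEP. BOC was chosen with both CYC libraries above all 10 others, so the direction of these differences is not a result.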

How the data were processed

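RNA was sequenced from 48 libraries in 24 groups of 2, of which 46 were from day 8. Expected counts per gene (read counts with decimals) were deposited by the authors, per the file headers. The submitters' processing notes name the build GRCh38.p13. Of the aligner, the counting tool and strandedness nothing is given in the sources used here. The authors also deposited TPM and FPKM values, which were used for no test. Columns of log2 fold change, p-value and q-value, which the authors computed with DESeq2 according to the column names, were deposited too and gave no value printed here.

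The expected counts of 19253 genes were rounded to whole numbers, which changed 43.4% of values. In R 4.3.3, edgeR 4.0.16 (filterByExpr by group, TMM, glmQLFit, glmQLFTest, 1 coefficient per group) was fitted to the 46 libraries of day 8, leaving 16113 genes and 23 residual degrees of freedom. Benjamini-Hochberg adjustment was made per comparison. The script was tested on simulated data with known changes. Alternatives were DESeq2 1.42.0, its size factors, no filter, the compared groups alone, a replicate block, each library or compound left out, and, chosen after seeing the data, a spread without the DMSO_S9 libraries and DG replicate 1.

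Genes were named by a rule that began with the 4 markers. Against DMSO the first 12 by p and 5 by size each way were added. Against the other compounds the first 10 by p each way were added. Both sets came from called genes with a mean of at least 1 CPM in the higher group. No overlap between the libraries compared was allowed, and the change had to be at least 2-fold. Against the other compounds, places were filled by p without the 2-fold limit where fewer passed. Up to 3 genes each way against single compounds and the first of each of 34 lists completed the rule. The members and lists were chosen with earlier results of these data known. A floor of 3 counts covers counting error only. Promoter windows came from RefSeq (GRCh38.p14), and windows overlapping a GENCODE exon were not printed. BMP7 and SFRP5 were named after their values were seen. Some genes are not reported here.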

Additional observations from a re-analysis of the deposited data

How the results depend on the processing

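Of the 208 named genes called against DMSO, 0 reversed under the alternatives that gave them a value. With all CYC and DMSO libraries kept, 197 to 208 kept the call, and fewer did when 1 was left out. Most of these genes were chosen by p or size in this comparison, so their stability is partly set by the choice. Over all 4762 called genes, 3635 stayed called with the compared groups alone. The count of 4762 genes lay between 2394 and 4196 when 1 library was left out, the lone library of that group being assumed to vary like the others. Against the mean of the other 5 compounds, the count of 319 lay between 0 and 1164 when 1 library was left out. It was 581 with a replicate block, 0 with the compared groups alone, 127 when DG replicate 1 and both libraries of DMSO_S9 were kept out of the spread, and 717 with DESeq2, 291 of them shared. Without IMI it was 6, without TPHP 134, without TDCIPP 147 and without ACE 548. DESeq2 called 42.0% of its genes higher in CYC, edgeR 58.9%. For CYC against IMI the 10 genes became 4 with no filter, 751 with the compared groups alone, 0 with the spread so estimated, 198 with DESeq2 and 0 to 7 when 1 library was left out. Against TDCIPP the count of 0 became 1 with the replicate block, 642 with the compared groups alone and 165 with DESeq2. Against TEP the count of 0 became 6 with DESeq2 and 0 to 26 when 1 library was left out. Against TPHP the 8 genes became 0 with the compared groups alone, 109 with DESeq2 and 0 to 798 when 1 library was left out. The cause of these changes was not tested. Replicate numbers did not pair the samples uniformly: correlations of same-numbered deviations ran from -0.56 to 0.61 over 21 pairs of groups and 9 were over 0.1. The correlation was 0.61 for TEP with TPHP, 0.54 for ACE with IMI, 0.11 for CYC with DMSO and -0.56 for ACE with TPHP. Pairing within some of the groups was not tested. With the replicate block, 5130 genes were called against DMSO.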

Other observations

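The cultures exposed to CYC with S9 added belong to no comparison above. GATA3 was at 47.1 and 103 CPM in the CYC libraries with S9 and at 6.93 and 8.82 CPM in the DMSO libraries with S9. HAND1 was at 1.94 and 7.75 CPM against 0.156 and 0.0996 CPM. KRT8 was at 1195 and 1651 CPM against 1062 and 1003 CPM, and SIX3 at 209 and 120 CPM against 862 and 811 CPM. These values were not tested.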
